A study of Mus musculus with 18 samples.

Results

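The proteasome subunit genes were chosen by symbol, as those named Psma, Psmb, Psmc, Psmd or Psme plus a number, with pseudogenes left out. The rule found 43 genes on 53 probes of the mRNA arrays. Of these, 42 passed the filter on dim probes and were tested among 24808 genes in all, and 41 lay well above background on all 9 arrays. The thymus subunit Psmb11 stayed below the filter, and the germ-cell subunit Psma8 passed it only through the MCT 330 arrays, so the counts and medians below are over the 41 other genes unless Psma8 is named.

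The arrays measured liver RNA of male C57BL/6 mice of 6 weeks, which were fasted for 12 h and then given saline (control) or a single oral dose of monocrotaline at 270 mg/kg (MCT 270) or 330 mg/kg (MCT 330), with livers taken 48 h later. Monocrotaline is a plant alkaloid that liver enzymes turn into a reactive pyrrole, and it is known for injury of the sinusoidal endothelium. Each group held 8 mice, of which 3 are labelled as arrayed. Levels are given as the log2 processed signal relative to the 75th percentile of the same array, so a level belongs to its probe, and levels of different probes are not compared as amounts of RNA.

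Some arrays of a group differed by less than repeated spots of the same array do, and were counted as 1 sample: control replicates 2 and 3, MCT 270 replicates 2 and 3, and all 3 MCT 330 replicates. The comparisons therefore rest on 2 control samples, 2 MCT 270 samples and 1 MCT 330 sample, whose spread was taken from the other groups. Between 63.0% and 80.3% of probes per array lay well above background, and all 7 hepatocyte markers measured did so on all 9 arrays. Each MCT 330 array was scanned apart from the other groups, so for this dose scan and dose cannot be told apart; control and MCT 270 arrays shared their scans. The p-values measure the spread between these few samples.

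The proteasome is the barrel-shaped protease that degrades proteins tagged with ubiquitin. Its core is a stack of rings of alpha subunits (Psma genes), which gate the entrance, and beta subunits (Psmb genes), of which Psmb5, Psmb6 and Psmb7 carry the cutting activities. A regulatory particle of ATPases (Psmc genes), which unfold the substrate, and of non-ATPase subunits (Psmd genes), which bind and remove ubiquitin, caps the core, and the Psme genes encode alternative activators. In immune cells, and in other cells exposed to interferon, Psmb8, Psmb9 and Psmb10 replace Psmb5, Psmb6 and Psmb7 and form the immunoproteasome, which is known for making peptides for MHC class I. In hepatocytes the constitutive form is known as a main route of regulated protein breakdown.

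At MCT 330, 5 of the 41 members rose and 0 fell (limma, Benjamini-Hochberg adjusted p over all genes). They were Psmd8, Psmd14, Psmd5, Psme4 and Psmb8. Among all genes tested, 9.48% rose and 24.0% fell in this comparison, so the 5 risen genes (12.2%) were near the background for rising, and 0 of 41 fell where the background for falling was the larger one. At an unadjusted p under 0.05, limma gave 9 of 41 higher and 0 lower, with a background of 14.5% and 32.7%. Positive log2 fold changes were found for 31 of the 41 members, against 38.7% of all genes, and the median over the 41 was 0.22, against −0.26 over all genes. The MCT 330 sample lay above both control samples in 24 members (32.0% of all genes did so). It lay below both in 4, Psma3, Psma5, Psmd9 and Psme3 (54.6% of all genes), and for Psmd9 by its brightest probe only.

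At MCT 270, limma called 0 of the 41 members, and 0.00% of all genes. At an unadjusted p under 0.05, 13 of the 41 members were higher and 0 lower, with a background of 9.81% higher and 8.79% lower. The log2 fold change was above 0 in 33 of the 41, against 47.8% of all genes, and its median was 0.25 against −0.02. Both MCT 270 samples lay above both control samples in 23 members (25.4% of all genes did so) and below both in 2, Psma5 and Psme3 (27.5% of all genes). When the 9 arrays were fitted as 9 samples, 21 of the 41 members passed at this dose, against 38.9% of all genes in that fit.

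Fixing each array on its median instead of its 75th percentile, or quantile normalization with or without normexp background correction, moved the median of all genes at MCT 330 from −0.26 to 0.13, −0.03 and −0.05. The member median moved with it, to 0.60, 0.44 and 0.44, and the number of positive members to 41, 39 and 39. The share of calls over all genes that were higher, 28.3% as reported, became 54.4%, 48.4% and 41.7%. A direction near 0 at MCT 330 is therefore relative to the scale chosen, while at MCT 270 the member median lay between 0.25 and 0.33 under all 4 scalings. Both treated groups are compared with the same control samples, so their values below are given side by side.

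**Figure D1:**
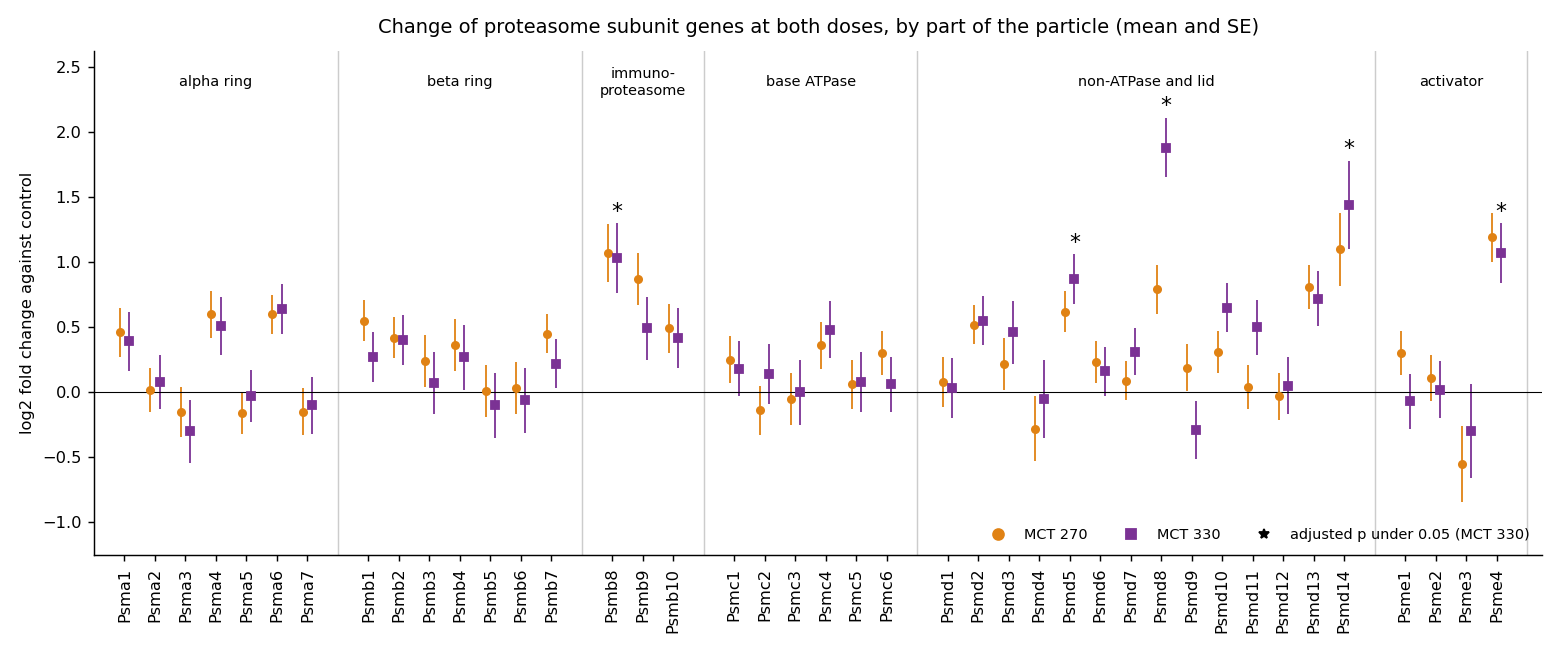
Log2 fold change against control (vertical axis) of the 41 subunit genes measured on all arrays, grouped along the horizontal axis by part of the proteasome, at MCT 270 (circles) and MCT 330 (squares), with bars for the SE of the fit. Stars mark the 5 genes whose adjusted p was under 0.05 at MCT 330; Psmd8 stands highest at 1.88, and Psme3 lowest at MCT 270 with −0.55.

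Of the immunoproteasome genes, Psmb8 rose at MCT 330, and all 3 lay above both controls in every treated sample. Psmb6 and the brightest probe of Psmb5 stayed within the range of their controls, while a dimmer Psmb5 probe did not. Psmb8, which replaces the chymotrypsin-like subunit Psmb5, stood at 0.55 and 0.06 in the control samples, at 1.36 and 1.38 in the MCT 270 samples and at 1.33 in the MCT 330 sample, where its 3 arrays read 1.31 to 1.35. All treated samples lay above both controls. It rose at MCT 330 by a log2 fold change of 1.03 ± 0.27 (SE; 2.04-fold, limma adjusted p = 0.0434), and its value at MCT 270 was 1.07 ± 0.22 (2.10-fold, limma adjusted p = 0.126).

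Psmb9, which replaces Psmb6, read 0.88 and 0.49 in the controls, 1.56 and 1.56 at MCT 270 and 1.18 at MCT 330. Its groups did not overlap either. The log2 fold changes were 0.87 ± 0.20 at MCT 270 and 0.49 ± 0.24 at MCT 330, neither past the threshold (limma adjusted p = 0.137 and 0.176). Psmb10, the counterpart of Psmb7, stood at 2.29 and 2.60 in the controls, 2.87 and 3.00 at MCT 270 and 2.87 at MCT 330. Again each treated sample was above both controls, with log2 fold changes of 0.49 ± 0.19 and 0.42 ± 0.23 that did not pass (limma adjusted p = 0.269 and 0.213).

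The constitutive catalytic subunits did not share this pattern as a group. The brightest probe of Psmb5 read 5.46 and 5.84 in the controls, 5.58 and 5.75 at MCT 270 and 5.55 at MCT 330. By this probe the treated samples lay between the controls. Psmb6 did likewise, with 5.75 and 6.12 in the controls, 5.86 and 6.07 at MCT 270 and 5.88 at MCT 330. Their log2 fold changes at MCT 330, −0.10 ± 0.25 and −0.06 ± 0.25, turned positive under the other 3 scalings (0.20 to 0.28 for Psmb5, 0.30 to 0.32 for Psmb6). Psmb7 was instead the constitutive catalytic gene with treated samples above its controls: it read 2.68 and 2.75, then 3.21 and 3.12 at MCT 270, and 2.93 at MCT 330. Its log2 fold changes were 0.45 ± 0.15 and 0.22 ± 0.19 (limma adjusted p = 0.233 and 0.401).

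Within an array, the difference between a replacement subunit and its counterpart does not depend on the scaling by percentile or median. Psmb8 minus Psmb5 changed by 1.06 log2 units at MCT 270 and by 1.14 at MCT 330 relative to the control mean, and the control samples were 0.87 apart. For Psmb9 minus Psmb6 the change was 0.85 and 0.55, with controls 0.76 apart, and for Psmb10 minus Psmb7 it was 0.03 and 0.20, with controls 0.24 apart. At MCT 270 the 2-sided exact permutation p was 0.333, 0.333 and 0.667 for the 3 pairs, and 0.333 is the smallest that 2 samples against 2 allow. By the brightest probe of each gene, the samples thus kept Psmb8 and Psmb9 apart from their partners without overlap, and did not separate Psmb10 from Psmb7.

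**Figure D2:**
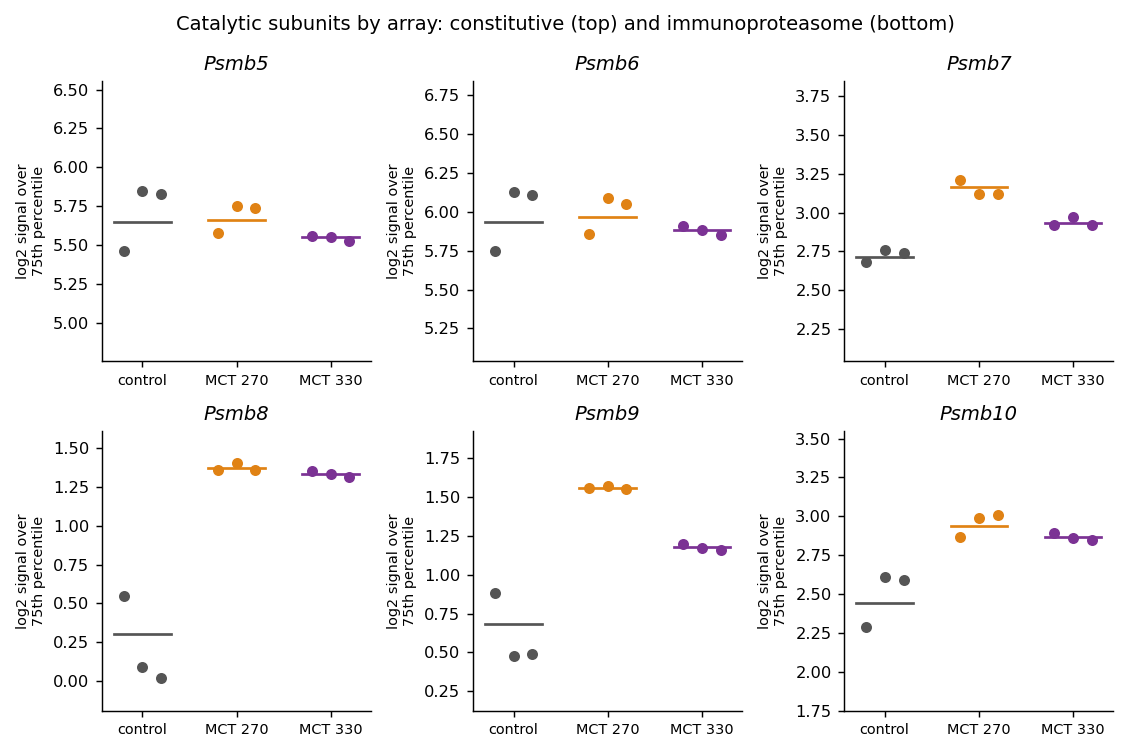
Level of the catalytic subunit genes on each of the 9 arrays (vertical axes, log2 signal over the array's 75th percentile), with constitutive genes in the top row and immunoproteasome genes below; points are arrays and lines are means over the joined samples. Treated arrays lie above all control arrays for Psmb7, Psmb8, Psmb9 and Psmb10, and between the control arrays for Psmb5 and Psmb6. Each gene is shown by its brightest probe.

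The activator genes Psme1 and Psme2, which encode the ring known to bind the core together with the immunoproteasome, did not lie above their controls in every treated sample, as Psmb8 did, by the brightest probe of each. Psme1 read 4.19 and 4.40 in the controls, 4.68 and 4.51 at MCT 270 and 4.22 at MCT 330. It was above the controls at the lower dose only, with log2 fold changes of 0.30 ± 0.17 and −0.07 ± 0.21. The brightest probe of Psme2 read 5.01 and 5.32, then 5.24 and 5.32 at MCT 270 and 5.19 at MCT 330, at or within the range of its controls. A dimmer Psme2 probe gave other values, described with the probe pairs.

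Leukocyte markers are given beside the immunoproteasome because immune cells express it. The summed linear signal of 4 pan-leukocyte markers, relative to the 75th percentile, was 2.82 to 2.94 in the controls, 2.99 to 3.31 at MCT 270 and 6.64 at MCT 330. That of 5 neutrophil markers was 8.69 to 9.71, 7.18 to 8.52 and 37.3, and that of 4 monocyte markers was 1.42 to 2.05, 2.63 to 3.13 and 7.44. The sum of 4 Kupffer cell markers was 17.2 to 20.5 in the controls, 8.87 to 8.97 at MCT 270 and 4.96 at MCT 330. That of 4 T cell markers was 21.0 to 25.7, 9.69 to 11.9 and 6.88. A sum follows its brightest probe most, Cd4 for T cells and, in the controls, Elane for neutrophils. At MCT 330 the log2 fold change was −1.85 ± 0.26 for Cd4 and −1.08 ± 0.20 for Cd3e, but 0.59 ± 0.24 for Cd3d and 0.10 ± 0.21 for Cd8a. The NK and B cell sums were low throughout, at 0.355 to 0.583 and 0.237 to 0.435 over the 5 samples. The Psmb8 difference between MCT 330 and MCT 270 was −0.04 ± 0.27, and 0.31 by the array median. The pan-leukocyte, neutrophil and monocyte sums were highest at MCT 330, and the pan-leukocyte and monocyte sums were above the controls at MCT 270 too. The part of these cells in the Psmb8 result was not tested, and in whole liver fewer cells of a type and less RNA per cell cannot be told apart.

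The 11 MHC class I genes, which supply and load the peptides that the immunoproteasome makes, had no call at either dose. Their median log2 fold change was 0.44 at MCT 270 and 0.41 at MCT 330, and at an unadjusted p under 0.05 limma gave 5 higher and 1 lower at MCT 270 (9.81% and 8.79% of all genes) and 1 higher and 1 lower at MCT 330 (14.5% and 32.7%). The chaperone Calr and the heavy chain H2-K1 had the smallest p at MCT 330, with log2 fold changes of 1.03 ± 0.34 and −0.52 ± 0.19 (limma adjusted p = 0.0783 and 0.0897). Psmb9, Tap1, Psmb8 and Tap2 lie side by side in the RefSeq gene order. The peptide transporter genes Tap1 and Tap2, given as these neighbours, had values of 0.65 ± 0.45 and 0.61 ± 0.18 at MCT 270 and of 1.24 ± 0.55 and 0.35 ± 0.22 at MCT 330, none past the threshold.

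Of 9 interferon signalling genes measured, 3 rose and 1 fell at MCT 330, where 9.48% of all genes rose and 24.0% fell. Cxcl10, an interferon-induced chemokine, rose by 3.40 ± 0.49 on the log2 scale, and the guanylate-binding protein gene Gbp2 by 2.08 ± 0.29 (limma adjusted p = 0.0126 and 0.0121). Cxcl9, another interferon-gamma induced chemokine, fell by 1.28 ± 0.24 (limma adjusted p = 0.0205). The list's median was 0.02 at MCT 270, or −0.02 under normexp, and 0.64 at MCT 330. At MCT 270, 0 genes passed, and limma gave 1 higher and 1 lower at an unadjusted p under 0.05 (9.81% and 8.79% of all genes). The ligand gene Ifng was not well above background on any array.

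Psmd8 showed the largest change of the 41 members. It encodes a lid subunit of the regulatory particle that is known to join last when the lid is built. Its level was 2.71 and 2.74 in the control samples, 3.34 and 3.69 in the MCT 270 samples and 4.60 in the MCT 330 sample, where the 3 arrays read 4.59 to 4.61. The groups were ordered by dose and did not overlap. At MCT 330 Psmd8 rose by a log2 fold change of 1.88 ± 0.23 (3.68-fold, limma adjusted p = 0.0101), and at MCT 270 its value was 0.79 ± 0.19 (1.73-fold, limma adjusted p = 0.147). It was also the only member called between the doses, higher at MCT 330 than at MCT 270 by 1.08 ± 0.23 (limma adjusted p = 0.0372), where 4.99% of all genes were called higher and 17.1% lower. At an unadjusted p under 0.05 it was also alone among the 41, with 1 higher (9.94% of all genes) and 0 lower (29.1%), and 19 of 41 members were above 0 between the doses (36.9% of all genes). Its call against control held in all 21 alternative settings. The call between the doses held in 18 of 21 and was lost in 3, with log2 fold changes between 0.91 and 1.44. Among the 3 were the fits that left a single MCT 270 sample.

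Psmd14 encodes the deubiquitinase of the lid, which cuts the ubiquitin chain from the substrate. It read 0.09 and −0.31 in the controls, 0.69 and 1.29 at MCT 270 and 1.33 at MCT 330. The treated samples were above the controls, and the MCT 270 samples were 0.60 apart, the widest gap of any member in that group. Psmd14 rose by 1.44 ± 0.34 at MCT 330 (2.71-fold, limma adjusted p = 0.0349) and stood at 1.1 ± 0.28 at MCT 270 (limma adjusted p = 0.157). Psmd5, a chaperone that helps to assemble the ATPase ring, was at 0.76 and 0.79 in the controls, 1.32 and 1.47 at MCT 270 and 1.65 at MCT 330. These values also stepped up with dose without overlap, and the gene rose by 0.87 ± 0.19 at MCT 330 (1.83-fold, limma adjusted p = 0.0298) against 0.62 ± 0.16 at MCT 270 (limma adjusted p = 0.157).

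Psme4 encodes an activator that opens the core without needing ubiquitin and is known for degrading acetylated histones. It read 0.23 and −0.11 in the controls, 1.23 and 1.27 at MCT 270 and 1.13 at MCT 330. The samples of both doses were close together and above the controls. Psme4 rose by 1.07 ± 0.23 at MCT 330 (2.10-fold, limma adjusted p = 0.0272), and at MCT 270 its log2 fold change of 1.19 ± 0.19 was the highest of the 41 members (limma adjusted p = 0.098). Its second probe read lower changes, as given with the probe pairs.

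**Figure D3:**
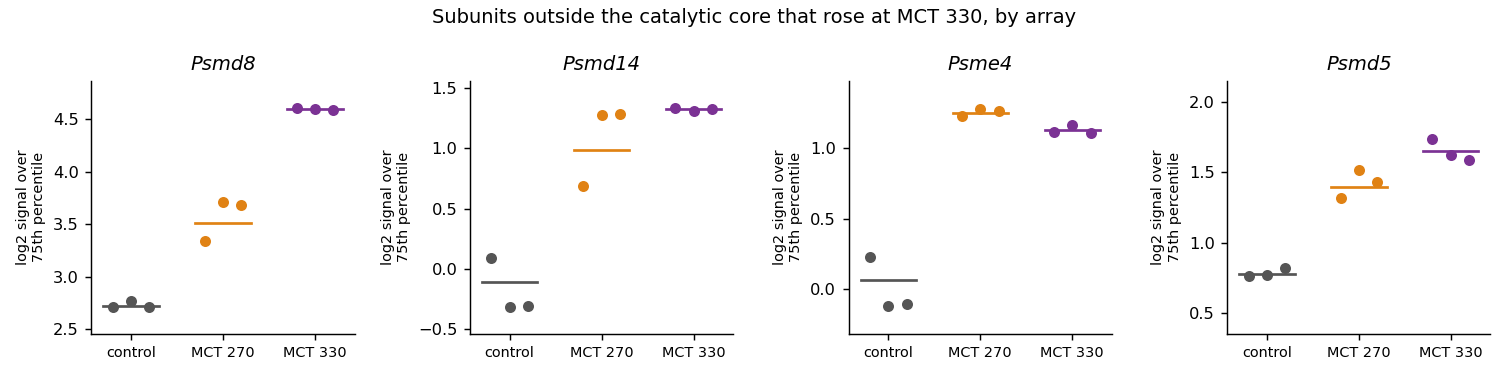
Level on each array (vertical axes, log2 signal over the array's 75th percentile) of the 4 genes outside the core particle that rose at MCT 330; points are arrays and lines are means over the joined samples. Psmd8 and Psmd5 step up from control to MCT 270 to MCT 330, while Psme4 is at 1.23 to 1.27 in the MCT 270 samples and at 1.13 in the MCT 330 sample.

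These calls depend on few samples. Without MCT 270 replicate 1, and without its replicates 2 and 3, the call of Psmd8 held and those of Psmd14, Psmd5, Psme4 and Psmb8 were lost. Fewer genes were called over the whole array in those fits as well. Psmd5 lost its call without control replicate 1, with a log2 fold change of 0.86 in place of 0.87 (limma adjusted p = 0.0536). Psmb8 lost it without MCT 330 replicate 1, with 1.02 in place of 1.03 (limma adjusted p = 0.0504). With control replicates 2 and 3 left out, the calls of Psmd8 and Psme4 held and those of Psmd14, Psmd5 and Psmb8 were lost. The share of all genes called was about the same in that fit.

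Promoter sequences are shown for 3 of the genes that rose, chosen for the largest change (Psmd8) and for a motif match (Psme4 and Psmd5), and for the catalytic pair Psmb8 and Psmb5, whose changes differed. They are the 250 bases before the RefSeq gene start, 5′ to 3′ on the strand of the gene, build GRCm38.p6, at chr7:29180674-29180923 (minus strand), chr11:30771525-30771774 (plus), chr2:34870963-34871212 (minus), chr17:34197945-34198194 (plus) and chr14:54617996-54618245 (minus). Capitals mark matches to the antioxidant response element (TGACNNNGC or TGAGNNNGC), the interferon-stimulated response element (GAAA, any 2 bases, GAAA) or an ETS site (CCGGAAG), searched on both strands.
Psmd8: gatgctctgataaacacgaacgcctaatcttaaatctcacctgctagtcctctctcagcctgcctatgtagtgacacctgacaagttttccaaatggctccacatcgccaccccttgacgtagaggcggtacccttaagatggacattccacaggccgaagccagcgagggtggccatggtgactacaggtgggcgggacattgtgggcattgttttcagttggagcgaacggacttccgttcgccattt
Psme4: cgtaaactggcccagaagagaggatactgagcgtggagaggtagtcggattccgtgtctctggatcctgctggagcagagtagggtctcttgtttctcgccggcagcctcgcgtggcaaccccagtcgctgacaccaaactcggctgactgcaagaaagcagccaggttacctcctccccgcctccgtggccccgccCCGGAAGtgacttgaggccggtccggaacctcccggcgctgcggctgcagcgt
Psmd5: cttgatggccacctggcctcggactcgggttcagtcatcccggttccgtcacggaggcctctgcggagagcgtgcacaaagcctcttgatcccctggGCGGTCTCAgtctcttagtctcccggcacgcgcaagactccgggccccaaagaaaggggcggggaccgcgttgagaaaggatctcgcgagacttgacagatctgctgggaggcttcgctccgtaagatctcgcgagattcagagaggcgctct
Psmb8: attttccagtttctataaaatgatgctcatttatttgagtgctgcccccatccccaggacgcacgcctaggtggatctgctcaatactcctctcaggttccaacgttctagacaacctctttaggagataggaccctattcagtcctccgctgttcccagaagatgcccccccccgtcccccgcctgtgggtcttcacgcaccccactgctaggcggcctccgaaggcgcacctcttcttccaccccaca
Psmb5: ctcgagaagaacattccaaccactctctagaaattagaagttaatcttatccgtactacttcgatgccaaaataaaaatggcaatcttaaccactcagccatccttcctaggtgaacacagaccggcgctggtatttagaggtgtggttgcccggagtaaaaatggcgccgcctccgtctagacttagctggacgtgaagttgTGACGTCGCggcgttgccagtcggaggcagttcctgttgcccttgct

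In these sequences Psme4 held an ETS site from −53 to −47, Psmd5 an antioxidant response element on the opposite strand from −153 to −145 and Psmb5 one on its own strand from −47 to −39, counted from the gene start. Psmd8 and Psmb8 held none of the 3 motifs in this window. Promoters of 36 members were found in the table. The antioxidant response element was in 10 of the 36 (27.8%), against 22.8% of 27025 promoters of that length; the ETS site in 10 (27.8%), against 7.05%; and the interferon-stimulated response element in 3 (8.33%), against 3.04%. Of the 5 genes that rose at MCT 330, 1 held the antioxidant response element, 1 the ETS site and 0 the interferon-stimulated response element. A match of letters is a description and not a site of binding.

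The other subunits of the regulatory particle were mixed. Over the 14 Psmd genes the median log2 fold change was 0.22 at MCT 270 and 0.48 at MCT 330, with 12 of 14 above 0 at each dose, against 47.8% and 38.7% of all genes. Under the other 3 scalings the median at MCT 330 was 0.54 to 0.86, with 13 or 14 of 14 above 0, against 47.7% to 55.2% of all genes. The scaffold subunit Psmd2 and the lid subunit Psmd13 read above both controls in every treated sample and did not pass the threshold, with values at MCT 330 of 0.55 ± 0.19 and 0.72 ± 0.21 (limma adjusted p = 0.0805 and 0.0548). Psmd9, an assembly chaperone, had the lowest value of the group at MCT 330: it read 0.57 and 0.69 in the controls, 0.97 and 0.67 at MCT 270 and 0.34 at MCT 330. Its log2 fold change of −0.29 ± 0.22 at MCT 330 did not pass. A dimmer Psmd9 probe read −0.10 and −0.05 in the controls and −0.04 at MCT 330, a log2 fold change of 0.03 ± 0.20. Psmd4, a ubiquitin receptor, had controls 4.26 and 4.83, which were wider apart than its difference of −0.28 ± 0.25 at MCT 270.

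The 6 ATPase genes had medians of 0.16 and 0.11, the latter 0.36 to 0.49 under the other scalings, and 0 had an unadjusted p under 0.05 at either dose. Psmc4 was the highest of them at MCT 330, reading 3.21 and 3.23 in the controls, 3.43 and 3.73 at MCT 270 and 3.70 at MCT 330. All treated samples were above its controls, and the log2 fold change of 0.48 ± 0.22 at MCT 330 did not pass (limma adjusted p = 0.151). Psmc3 was the lowest at MCT 330, with 4.37 and 4.77 in the controls, 4.46 and 4.59 at MCT 270 and 4.57 at MCT 330, where the spot of replicate 1 was left out. Its treated samples lay within the range of the controls, at 0.00 ± 0.25.

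None of the 14 constitutive genes of the core rings passed at either dose, while limma gave 5 and 1 of them a higher level at an unadjusted p under 0.05, against 9.81% and 14.5% of all genes, and 0 a lower one (8.79% and 32.7%). The 7 alpha ring genes had medians of 0.02 at MCT 270 and 0.08 at MCT 330, the latter 0.33 to 0.46 under the other 3 scalings. Psma6 was the highest of them at MCT 330, reading 2.51 and 2.57 in the controls, 3.12 and 3.16 at MCT 270 and 3.18 at MCT 330. Its treated samples were close together and all above the controls, with log2 fold changes of 0.60 ± 0.15 and 0.64 ± 0.19 (limma adjusted p = 0.159 and 0.0573). Psma3 was the lowest at MCT 330 and read 5.78 and 6.04 in the controls, 5.63 and 5.89 at MCT 270 and 5.60 at MCT 330, a log2 fold change of −0.30 ± 0.24 that did not pass.

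The 7 beta ring genes had medians of 0.36 and 0.22, the latter 0.40 to 0.60 under the other scalings, and 7 of 7 were above 0 at MCT 270 (47.8% of all genes). Psmb2 was the highest at MCT 330, with levels of 1.41 and 1.31 in the controls, 1.71 and 1.84 at MCT 270 and 1.76 at MCT 330. The groups did not overlap, and the log2 fold changes of 0.42 ± 0.16 and 0.40 ± 0.19 did not pass (limma adjusted p = 0.266 and 0.174). The 4 activator genes had medians of 0.21 and −0.03, the latter of which turned to 0.29 to 0.36 under the other 3 scalings. Psme3, which encodes the nuclear activator ring, was the lowest: it read 1.22 and 1.82 in the controls, 1.21 and 0.72 at MCT 270 and 1.21 at MCT 330. Its control samples were 0.60 apart, the widest gap of any member in that group, and its values of −0.55 ± 0.29 and −0.30 ± 0.36 did not pass.

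The 2 tissue-specific members were at or near background. Psma8, the alpha subunit of germ cells, was well above background on 0 control arrays, 1 MCT 270 array and 3 MCT 330 arrays. It was at least 1.54-fold higher at MCT 330 than in the controls, where each control array counts with the larger of its dimmest signal that still cleared background and the Psma8 signal itself. No test is given for Psma8, since it entered the fit only through the MCT 330 arrays. Psmb11, the thymus subunit, was well above background on 2 of 9 arrays and was not tested. The signal of Psma5, Psmb5, Psmb6, Psmb7 and Psme2 is uncertain in its source, since RefSeq lists near-identical copies or pseudogenes of these genes.

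The control samples differed from each other in the same direction for most members. Control 1 was lower than the joined control 2 and 3 in 35 of 41 members, by a median of 0.21, and MCT 270 replicate 1 was lower than the joined replicates 2 and 3 in 35 of 41, by a median of 0.13. Psmb8, Psmb9, Psmd14 and Psme4 went the other way in the controls, where control 1 was the higher sample. Within the scan that held replicates 1 and 2 of both groups, the member median at MCT 270 was 0.25, with 33 of 41 above 0, and within the scan of replicate 3 it was 0.21, with 27 of 41. Psmb8 was 1.06 and 1.34 in these scans, Psmd8 0.79 and 0.97, and Psme4 1.20 and 1.37, all on the log2 scale.

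Members whose probes had a weaker signal had larger positive changes; the mean signal serves here as a measure of probe brightness, which also depends on the probe, and not of RNA amount. The 17 members with a mean level above 4 had a median log2 fold change of 0.02 at MCT 270 and 0.02 at MCT 330. The 14 members at 2 to 4, Psmd8 among them, had medians of 0.41 and 0.44, and the 10 members at 0 to 2, which include Psmb8, Psmd14, Psme4 and Psmd5, had 0.72 and 0.68. All genes in the same classes had medians of −0.16, −0.05 and −0.02 at MCT 270 and of −0.27, −0.14 and −0.04 at MCT 330. Spearman's rho between level and change over the 41 members, which share the arrays and the controls, was −0.55 and −0.57, against −0.18 and 0.06 over all genes. The part of signal strength in these results was not tested.

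**Figure D4:**
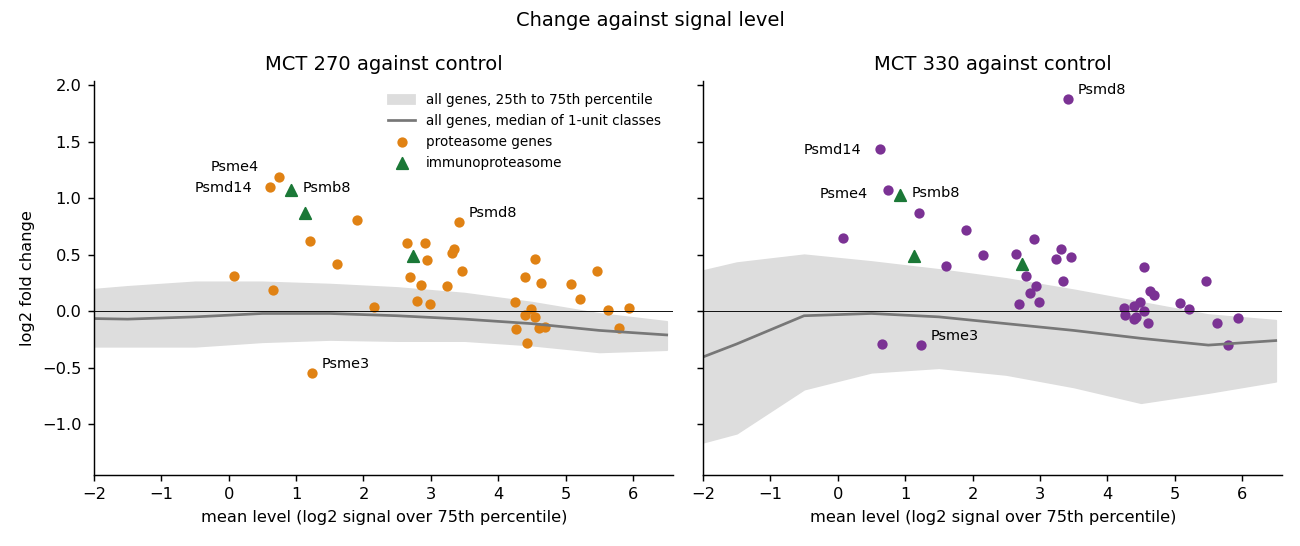
Log2 fold change against control (vertical axis) by mean level over samples (horizontal axis, log2 signal over the 75th percentile) for 41 proteasome genes (points; triangles are Psmb8, Psmb9 and Psmb10), over the median and interquartile range of all genes in classes of 1 log2 unit. Members above a level of 4 lie near 0 at both doses, and those with larger changes have a lower signal.

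For 10 members a second, dimmer probe was measured, and it gave a higher log2 fold change than the brightest in 8 of 10 at each dose; over 4123 genes with more than 1 probe the share was 68.2% at MCT 270 and 64.6% at MCT 330. The probes of Psme2 differed: its brightest probe gave 0.11 ± 0.18 and 0.02 ± 0.22, and its dimmer one, which read 1.71 and 1.57 in the controls, 2.31 and 2.52 at MCT 270 and 2.35 at MCT 330, gave 0.77 ± 0.17 and 0.71 ± 0.21. By the dimmer probe the treated samples of Psme2 were above the controls, and by the brightest they were not. The lid subunit Psmd12 was alike, at −0.03 ± 0.18 and 0.05 ± 0.22 by the brightest probe and 0.72 ± 0.23 and 0.88 ± 0.28 by the dimmer. Psme4 went the other way, with 0.38 ± 0.18 and 0.40 ± 0.22 by its dimmer probe, and the mean of its probes did not pass at MCT 330 (0.73, limma adjusted p = 0.059). The dimmer probe of the assembly chaperone Psmd10 passed at MCT 330 in a fit over all probes (0.89 ± 0.20, limma adjusted p = 0.0305), while its brightest probe did not (0.65 ± 0.19, limma adjusted p = 0.06). Which probe reports the main transcript was not tested.

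**Figure D5:**
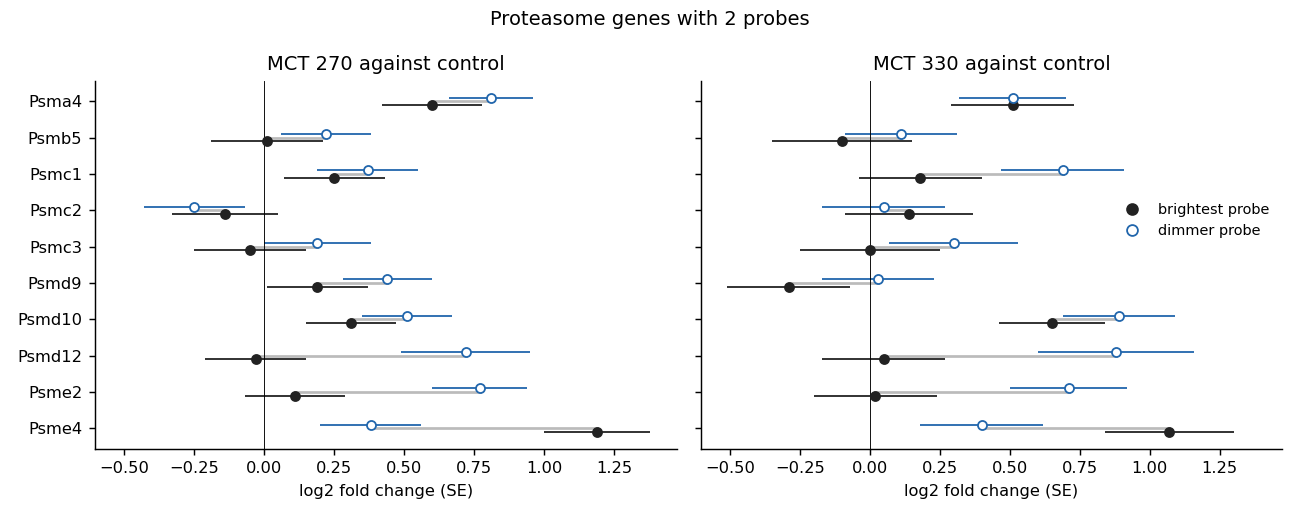
Log2 fold change against control (horizontal axes, bars are SE) of the brightest probe (filled) and the dimmer probe (open) of the 10 proteasome genes with 2 probes, at MCT 270 (left) and MCT 330 (right). The pairs of Psme2, Psmd12 and Psme4 lie furthest apart at MCT 270.

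The genes around the proteasome were mixed as well. Of the 14 measured assembly and associated factors, 0 passed at either dose, 3 and 0 were higher at an unadjusted p under 0.05 in limma and 0 lower at either dose, and the median was −0.01 at MCT 270 (0.01 to 0.03 under the other scalings) and 0.03 at MCT 330 (0.12 to 0.41). The smallest p at MCT 330 belonged to the thioredoxin-like Txnl1, with 0.80 ± 0.35, and the lid component Sem1, with −0.45 ± 0.22 (limma adjusted p = 0.142 and 0.174). Among 17 genes of ubiquitin supply and shuttling, 4 rose at MCT 330 and 0 fell, where 9.48% of all genes rose and 24.0% fell. The proteasome-associated stress gene Zfand2a rose by 2.28 ± 0.19 and the ubiquitin-binding autophagy receptor Sqstm1 by 1.44 ± 0.29 on the log2 scale (limma adjusted p = 0.00872 and 0.0242), as did the shuttle genes Ubqln2 and Ubqln4.

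Of 9 known transcriptional regulators of subunit genes, 3 rose and 1 fell at MCT 330 (9.48% and 24.0% of all genes). The small Maf genes Maff and Mafk, whose products pair with the transcription factors Nfe2l1 and Nfe2l2, rose by 3.27 ± 0.21 and 2.51 ± 0.22 on the log2 scale (limma adjusted p = 0.00872 for each), and Mafg fell by 0.93 ± 0.23 (limma adjusted p = 0.0397). Nfe2l2 rose by 1.31 ± 0.20 (limma adjusted p = 0.0141). Nfe2l1, the factor known for raising subunit genes when the proteasome is inhibited, read 0.39 ± 0.20 and did not pass. Of the 9 Nrf2 targets, genes that Nfe2l2 controls, that were measured on all arrays, 7 rose at MCT 330 and 0 fell (9.48% and 24.0% of all genes), with a median of 2.00. The pentose phosphate enzyme gene G6pdx rose by 3.71 ± 0.21 (limma adjusted p = 0.00872), and the cystine transporter gene Slc7a11, which was well above background on 3 arrays, none of them a control, and so is not counted, was at least 2.58-fold higher. At MCT 270 none of the 70 genes of these 6 lists passed in limma, and 18 had an unadjusted p under 0.05. Of all genes, 9.81% were higher and 8.79% lower at that limit.

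The remaining cell type markers moved in both directions at MCT 330, where 9.48% of all genes rose and 24.0% fell. Counted over the markers that lay well above background on all 9 arrays, 0 rose and 3 fell of 7 hepatocyte markers. Of these markers 3 of 4 pan-leukocyte, 2 of 3 neutrophil and 2 of 3 monocyte markers rose and 0 fell. The other neutrophil marker so counted, Elane, read −0.87 ± 0.26 and did not pass. Retnlg and Mpo were well above background on fewer arrays and are not counted. Retnlg, on 7 arrays with 1 control, read 5.68 ± 0.34, and Mpo, on 6 arrays with 3 controls, read −2.19 ± 0.39. The sizes of these changes are uncertain, since some of the arrays were not well above background. Of 4 Kupffer cell markers 4 fell, of 4 sinusoidal endothelial markers 3, of 3 stellate cell markers 3 and of 4 T cell markers 2, with 0 higher in each class. The 1 NK cell and the 2 B cell markers so measured did not pass. The B cell gene Ms4a1, not above background on any control array, was at least 3.73-fold higher at MCT 330, and for the NK cell gene Ncr1 no fold can be given, since its signal at MCT 330 was below the limit of the control arrays. The summed signal of the hepatocyte markers was 1300 to 1380 in the controls, 1050 to 1340 at MCT 270 and 791 at MCT 330. None of the markers passed at MCT 270. Over the markers on all 9 arrays, at an unadjusted p under 0.05 limma gave 1 higher and 2 lower of 7 hepatocyte markers. Of 4 pan-leukocyte markers 1 was higher, of 3 monocyte markers 1, and of 3 neutrophil and 2 B cell markers 0. Lower were 4 of 4 Kupffer cell, 3 of 4 sinusoidal endothelial, 2 of 3 stellate cell, 1 of 4 T cell and 1 of 1 NK cell markers. Of all genes, 9.81% were higher and 8.79% lower at that limit. The part of these shifts in cell types in the subunit results was not tested.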

How the data were processed

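The deposited mRNA values are spot intensity values from Agilent Feature Extraction 11.0.1.1, a 1-colour Cy3 scan per array with background already subtracted by the authors' software, per the file headers; the array design was annotated on mm9. The miRNA arrays were not used here. From these intensities, log2 values minus each array's 75th percentile were computed here; spots marked non-uniform or population outliers were set missing, spots of a probe averaged, and a probe was kept if every array of some group showed it well above background; the brightest probe stood for its gene. Systematic names were matched to symbols in RefSeq and gene name tables: 27228 of 39429 probes matched.

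Arrays of a group were joined where their robust SD was at most that of repeated spots (ratios 0.472 to 0.902; other pairs 2.687 to 3.751). MCT 330 replicate 1 was joined with the least margin, after 172 of its spots over 1 log2 unit from both others were left out. Repeated spots of replicates 2 and 3 also deviated together in every group (Spearman 0.675 to 0.817, other pairs 0.367 to 0.477). The joined samples entered 1 fit over the 3 groups with limma 3.58.1 (lmFit, eBayes) in R 4.3.3, threshold 0.05 after Benjamini-Hochberg adjustment over 24808 genes, tested on simulated data. The files gave no mean signal, so the normexp alternative (offset 50) used the median signal.

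Replicate numbers did not pair the groups: deviations of the same number correlated at −0.04 to 0.04. The members, the 6 gene lists and the 10 marker lists were chosen with earlier results of these data known. All members may be named; values per sample are given for the catalytic pairs, Psme1, Psme2 and the highest and lowest of each group at MCT 330, and from each list the 2 highest and 2 lowest calls at MCT 330, otherwise the 2 smallest p. Genes named outside this rule were chosen after their values were seen. The alternatives are other scalings, background correction, filters, probes, scan blocks, 9 arrays as samples and left-out arrays. The number of arrays limits the precision. Gene coordinates are not given because the reference tables are on another build than the array design; promoters are printed on the build of the table. Values of 1 listed gene are not reported here.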

Additional observations from a re-analysis of the deposited data

How the results depend on the processing

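Counts of called members, over the 41 well above background on all arrays, were 0, 5 and 1 at MCT 270, at MCT 330 and between the doses. They moved with how samples were formed. With 9 arrays as 9 samples 21, 23 and 11 of the 41 were called, where 38.9%, 73.2% and 65.4% of all genes were. Over the 42 tested members, Psma8 included, these counts were 22, 24 and 12. The share of members called was above that of all genes at MCT 270 and below it in the other comparisons. With the replicate number as a block the counts over the 41 were 21, 22 and 13 (38.1%, 72.7% and 64.8% of all genes). With Psma8 included they were 22, 23 and 14. The joined samples with a replicate block gave 0 at MCT 270. With scan as a random block the counts over the 41 were 20, 24 and 12 (36.2%, 76.1% and 68.9% of all genes). With Psma8 included they were 21, 25 and 13. With scan as a fixed block, possible at MCT 270 alone, the count over the 41 was 13 (20.8% of all genes). Scaling by the array median gave 12 at MCT 330, and quantile normalization 8, all higher (16.5% and 12.5% of all genes were higher). Normexp gave 2 at MCT 270 and 21 at MCT 330, all higher (0.867% and 14.9% of all genes were higher). Dropping the filter on dim probes gave 1 at MCT 330 and 0 between the doses (11.6% and 0.0% of all genes). A filter on all arrays gave 1 at MCT 270 and 8 at MCT 330, all higher (0.629% and 11.5% of all genes were higher). Keeping outlier spots gave 6 at MCT 330 and 2 between the doses (33.5% and 22.1% of all genes). In each of these 1 was lower (24.1% and 17.1% of all genes were lower). Leaving out 1 array of a joined sample gave 4 or 5 calls at MCT 330 and 1 between the doses. Without replicate 1 of control or MCT 270, or without replicates 2 and 3 of either, calls at MCT 330 were lost in each fit. The Psmd8 call between the doses was lost where the MCT 270 replicates were the ones left out. In those fits the single sample left takes its spread from the rest. At MCT 270, the count stayed at 0 in all left-out fits. Psmb5 at MCT 330 turned from −0.10 to 0.25 (quantile), 0.28 (array median), 0.20 (normexp), 0.00 (mean of probes) and 0.08 (without control replicates 2 and 3), and Psmb6 from −0.06 to 0.30, 0.32, 0.30 and, without those controls, 0.12. Psmb8 between the doses turned from −0.04 to 0.31 by the array median. Of the calls at MCT 330, that of Psmd8 held in all 21 alternatives, while Psmb8 lost it in 6, Psmd5 in 5, and Psmd14 and Psme4 in 4 each. The causes of these shifts were not tested, beyond the smaller number of samples in fits that leave some out.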
